A study of Mus musculus with 4 samples.

Results

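Barcodes that carry transcripts of natural killer (NK) cell and cytotoxic lymphocyte genes were described in single-cell RNA libraries of mouse aorta. They were chosen by 4 genes: Nkg7, a membrane protein of cytotoxic granules, Klre1, a lectin-like surface receptor, Ncr1, the activating receptor NKp46, and Gzma, the granule protease granzyme A. A barcode, which stands for 1 droplet, was a member when these genes together had at least 3 unique molecular identifiers (UMIs, each counting 1 captured RNA molecule). A member also had no UMI of the thymocyte genes Rag1, Dntt and Ptcra, none of the B cell genes Cd79a and Ms4a1, and at most 2 of the macrophage genes C1qa, C1qb and C1qc. Of 70795 deposited barcodes, 53866 were kept, with 500 or more UMIs of which no more than 10% were mitochondrial, and 152 of the kept barcodes were members. Because measured UMIs chose the members, the levels of the 4 genes below are a description.

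Aortas were digested with collagenases and liberase for 90 min, passed through a 40 µm strainer and loaded on a 10x Genomics system. There were 4 libraries, 1 per group. A normal diet was given to WT and LysM-DKO mice and a western diet to WT/ApoE-/- and LysM-DKO/ApoE-/- mice, and values for all 4 libraries follow this order. Both western diet groups thus lack ApoE, the apolipoprotein whose loss makes mice prone to atherosclerosis, and both normal diet groups do not. The labels do not spell out the deleted genes, and the title of the series names the epsins, endocytic adaptor proteins that Epn1 and Epn2 encode. As background, LysM stands for the lysozyme M promoter, which is active in monocytes, macrophages and neutrophils, so lymphocytes are not the cells a LysM-driven deletion is aimed at. Ages, numbers of pooled animals and replicate animals were not given in the sources used here, so no test between groups was made. The 95% intervals below are exact, Poisson for levels and binomial for shares and ratios, and cover counting error only.

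NK cells are innate lymphocytes that kill stressed or infected cells through perforin and granzymes and that release interferon gamma and chemokines. They signal through receptors paired with the adaptors Tyrobp (DAP12), Fcer1g and Hcst, and they lack a rearranged T cell receptor with its CD3 chains. Cytotoxic CD8 T cells share much of the granule machinery and several lectin-like receptors, so a set chosen by Nkg7 or Klre1 can hold both. Both kinds of cell are found in the vessel wall and adventitia, where they are best known for studies of atherosclerosis.

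The members numbered 58, 58, 31 and 5. These were 0.642% (0.488 to 0.829) of the kept barcodes of WT on normal diet and 0.602% (0.457 to 0.777) of those of LysM-DKO on normal diet. They were 0.119% (0.0805 to 0.168) of the kept barcodes of WT/ApoE-/- on western diet and 0.0553% (0.0180 to 0.129) of those of LysM-DKO/ApoE-/-. The intervals of both normal diet libraries overlapped, and both lay above those of the western diet libraries. With each barcode thinned to 1000 UMIs the shares of the first 3 libraries were 0.0902% (0.0363 to 0.186), 0.134% (0.0667 to 0.239) and 0.0728% (0.0349 to 0.134), with overlapping intervals. Barcodes with a UMI of Ptprc, the leukocyte protein CD45, were 22.2, 24.1, 10.4 and 2.11% of the kept barcodes, so the yield of leukocytes moved with the members. Among Ptprc-positive barcodes the members were 2.84% (2.16 to 3.66), 2.36% (1.79 to 3.07), 1.11% (0.747 to 1.57) and 2.62% (0.855 to 6.003). By that denominator WT/ApoE-/- on western diet was lower than both normal diet libraries, and the interval of LysM-DKO/ApoE-/- covered the values of the other 3. Fewer cells of the kind and less RNA per cell cannot be told apart for a set chosen by a UMI minimum.

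Diet cannot be told apart from the ApoE genotype, from the Cell Ranger version that made the counts, or from the sex of the cells. The female-specific RNA Xist had 419, 346, 0 and 0 UMIs in the members and the Y-linked gene Ddx3y had 0, 0, 18 and 7. Depth differed too: members had a median of 5389.5, 3937, 2047 and 2739 UMIs, and their summed UMIs were 304068, 284178, 138535 and 22421. A count of 0 (3 counts of the total) allows up to 9.87, 10.6, 21.7 and 134 CPM, that is, UMIs per 1000000 UMIs of the members of that library. Barcode sequences shared between kept sets of different libraries numbered 257, and none was a member in both. Of the members, 5, 1, 2 and 0 were among the barcodes with the highest doublet scores, and they were retained.

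Most members went against the label of NK cells. A UMI of Cd3d, Cd3e or Cd3g, chains of the T cell receptor complex, was present in 48, 48, 28 and 3 members, 127 of 152 in all. Ncr1, the defining NK gene of the rule, had UMIs in 4 barcodes, 2 in each LysM-DKO library, and all 4 lacked CD3 UMIs. The members are therefore called marker-positive barcodes with and without CD3 UMIs. Smooth muscle barcodes, with at least 20 UMIs of Acta2, Tagln and Myh11 and none of Ptprc, gave the background of free RNA in the droplets. A CD3 UMI was seen in 1.15, 3.79, 2.07 and 0.0428% of them. Those that also lacked CD3 UMIs had median depths of 7330, 6377, 1610 and 7043.5 UMIs. Among the latter, any UMI of the 4 rule genes was seen in 0.437, 0.794, 0.565 and 0.0571%. In LysM-DKO on normal diet 1 of them held 3 or more. Barcodes with Ptprc or CD3 UMIs were left out beforehand, so the background of the rule genes may be understated.

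The threshold of 3 UMIs sat in the middle of a continuous range. Exactly 3 marker UMIs were held by 61 members, of which 56 carried CD3, and 128 barcodes with 2 marker UMIs, of which 108 carried CD3, fell just outside. The exclusions removed 8 barcodes for thymocyte genes, 8 for B cell genes and none for C1q genes. Within all kept barcodes with CD3 UMIs, the members with CD3 made up 4.68% (3.47 to 6.16), 4.55% (3.38 to 5.99), 2.58% (1.72 to 3.71) and 6.25% (1.31 to 17.2).

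**Figure D1:**
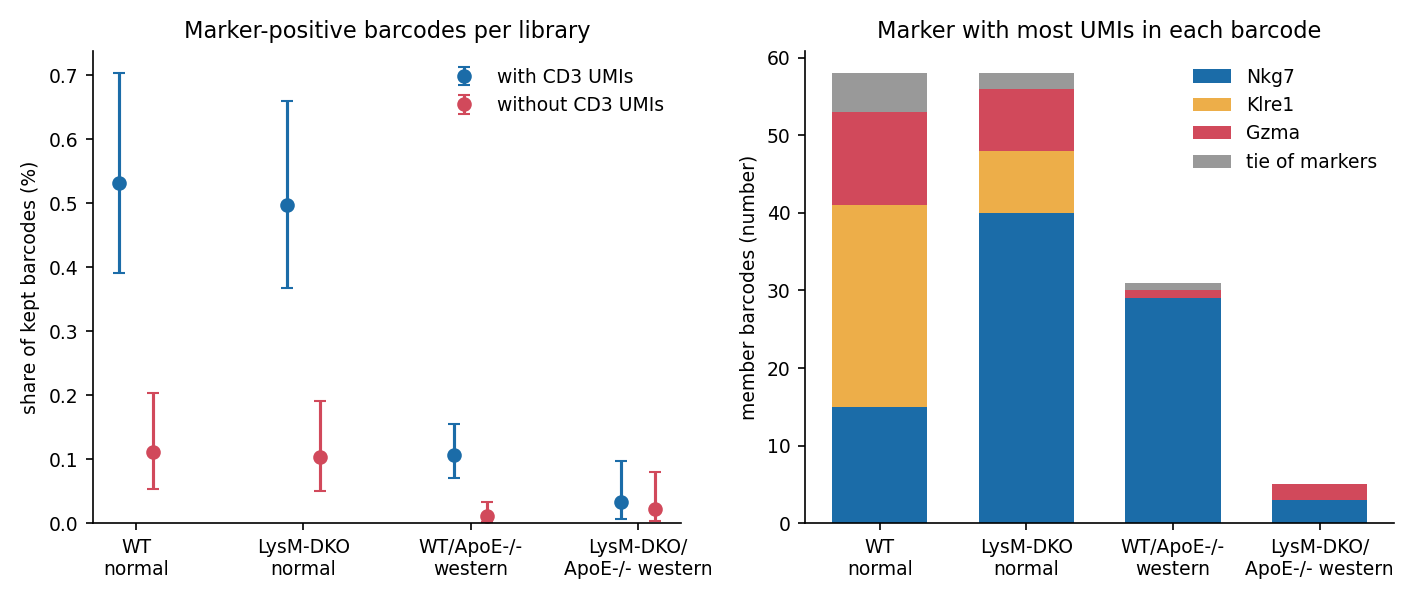
Left, marker-positive barcodes with and without CD3 UMIs as a share of kept barcodes in each library (points, percent; bars, exact 95% binomial intervals); right, number of members by the rule gene with the most UMIs. Members with CD3 lie at 0.531 and 0.498% in both normal diet libraries, where Klre1 leads in 26 barcodes of WT and 8 of LysM-DKO.

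Which of the rule genes brought a barcode in differed between the libraries. Nkg7 had 88, 255, 126 and 20 UMIs in the members, or 289, 897, 910 and 892 CPM. Klre1 had 126, 46, 6 and 3 UMIs, or 414, 162, 43.3 and 134 CPM. Gzma had 103, 97, 9 and 54 UMIs, or 339, 341, 65 and 2408 CPM. WT on normal diet was thus lowest in Nkg7 and highest in Klre1, and Gzma was highest in LysM-DKO/ApoE-/-, where 53 of its 54 UMIs came from 2 barcodes.

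By the gene with the most UMIs, 87 members were led by Nkg7, 34 by Klre1, 23 by Gzma and 8 by a tie. Klre1 led in 26 of 58 members of WT on normal diet and in 8 of 58 of LysM-DKO on normal diet, while Nkg7 led in 15 and 40. On western diet Nkg7 led in 29 of 31 and 3 of 5 members and Klre1 in none. Members that held Nkg7 alone of the 4 genes numbered 10, 32, 27 and 1. After thinning each barcode to 1000 UMIs, Klre1 was still seen in 25 of 58 WT and 10 of 58 LysM-DKO members on normal diet, and Nkg7 in 12 and 34, against 43, 19, 37 and 55 unthinned.

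The 25 members without CD3 UMIs were 10, 10, 3 and 2 barcodes, 17.2% (8.59 to 29.4) of the members in each normal diet library. With the rule applied again after thinning to 1000 UMIs, 7 and 11 barcodes remained as members on normal diet. Of these 6 and 6 lacked CD3 UMIs, 85.7% (42.1 to 99.6) and 54.5% (23.4 to 83.3). Without thinning but with T cell receptor UMIs barred too, the share was 6.90 and 5.17%. The 25 members without CD3 UMIs were led by Gzma in 16 barcodes, against 7 of 127 with CD3. Gzma stood at 1960, 1934, 696 and 11337 CPM without CD3 and at 147, 81.8, 37.7 and 56.4 CPM with CD3. Nkg7 and Klre1 differed less between these subsets, with 58 and 31 UMIs in all without CD3 against 431 and 150 with CD3. The split was cut from UMIs of the same barcodes, so what follows is described and not tested.

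Barcodes without CD3 carried several NK genes that were not in the rule. Over the 4 libraries summed, 22.8% of 5081 genes with at least 20 UMIs differed more than 2 fold from members with CD3, 12% higher and 10.7% lower, which is the background for each list here. With median-ratio scaling 509 genes were higher and 610 lower, against 612 and 546. Irf8, a transcription factor active in NK and myeloid cells, had 73, 68, 1 and 12 UMIs without CD3 and 5, 6, 3 and 1 with CD3. In CPM this was 2271, 1708, 174 and 2567 against 18.4, 24.6, 22.6 and 56.4 CPM, and a UMI was present in 21 of 25 against 11 of 127 barcodes. The levels of both subsets were far apart in every library but WT/ApoE-/-, where 1 barcode held the single UMI. Not every list of NK genes was higher without CD3. Of 4 measured lectin-like receptor genes, 1 was more than 2 fold higher and none lower. Their median log2 ratio was 0.42, beside 0.13 over all genes. Of 4 measured genes of other NK surface receptors, 1 was more than 2 fold higher and 2 lower, with a median of -0.34.

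Of the signalling adaptors, Fcer1g and Tyrobp were higher without CD3. Fcer1g had 28, 31, 1 and 8 UMIs without CD3 and 19, 9, 0 and 0 with CD3, or 871, 779, 174 and 1711 CPM against 69.9 and 36.8 CPM on normal diet. Tyrobp had 15, 12, 0 and 5 UMIs without CD3 and 3, 2, 0 and 0 with CD3. A UMI of either adaptor was found in 20 of 25 members without CD3 and in 17 of 127 with CD3. Of the 13 measured adaptor and signalling genes, 2 (Fcer1g and Tyrobp) were more than 2 fold higher without CD3 and 2 were lower, with a median log2 ratio of -0.04 beside 0.13 over all genes.

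Prf1, Gzmb and Cma1 were higher in barcodes without CD3. Prf1, which forms pores in target membranes, had 5, 19, 1 and 4 UMIs without CD3, or 156, 477, 174 and 856 CPM, against 8, 13, 4 and 0 UMIs, or 29.4, 53.2, 30.1 and 0 CPM, with CD3. Gzmb, granzyme B, had 4, 22, 0 and 7 UMIs without CD3 against 16, 56, 7 and 2 with CD3, a summed log2 ratio of 1.73 (1.09 to 2.32). Of the LysM-DKO UMIs without CD3 on normal diet, 1 barcode held 11 of the 19 of Prf1 and 11 of the 22 of Gzmb. Cma1, a mast cell protease also transcribed by mature NK cells, had 6, 10, 0 and 3 UMIs without CD3 against 0, 1, 0 and 0. The mast cell genes of the fixed list had 4 UMIs in all members of WT on normal diet and none elsewhere. Gzmk went the other way: all of its 4, 34, 6 and 1 UMIs lay in barcodes with CD3. Of 13 measured granule genes, 6 were more than 2 fold higher without CD3 and 2 lower, with a median of 0.98.

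Several cytokine receptors were also higher without CD3. Il18rap, a chain of the receptor for interleukin 18, had 10, 19, 0 and 7 UMIs without CD3 against 10, 4, 5 and 1 with CD3, a log2 ratio of 3.85 (3.04 to 4.73). Il2rb, the beta chain of the receptors for interleukins 2 and 15, stood at 2925, 1356, 696 and 1070 CPM against 908, 597, 249 and 225 CPM. It was higher without CD3 in all 4 libraries. Of 12 measured cytokine receptor genes, 6 were more than 2 fold higher and 1 lower, with a median of 1.02. Itga2, the NK marker CD49b, and Itgam, CD11b of mature NK cells, had 11 and 9 UMIs without CD3 in all against 5 and 4 with CD3, under the 20 UMIs that a ratio was given for. The transcription factor Tbx21 (T-bet) had 15 UMIs without CD3 against 30 with CD3, a log2 ratio of 2.04 (1.02 to 2.96), and Eomes, shared by NK and memory CD8 T cells, had a ratio of 0.73 (0.12 to 1.27).

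The Ly49 receptors, which read MHC class I molecules, were sparse. Klra8, the Ly49H receptor, had 8, 1, 10 and 1 UMIs without CD3 and 1 UMI with CD3, and all 10 of WT/ApoE-/- came from 1 barcode of 2492 UMIs that also had 4 of Klra4. Klra4 had 4, 7, 4 and 0 UMIs, all without CD3. Klra9 had 5, 1, 12 and 16 UMIs, of which 15 of 34 lay in barcodes without CD3. Ly49 genes are near-identical copies in a cluster on chromosome 6, so reads between them may be split wrongly, and strain differences at the cluster were not analysed here. Klrb1c, which encodes the NK1.1 antigen, had 3, 0, 0 and 3 UMIs in all members.

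Genes of the T cell receptor and its co-receptors were lower without CD3: of 15 measured genes 10 were more than 2 fold lower and none higher, with a median of -1.94. The rule for the split used CD3 only, but barcodes with CD3 are by that choice enriched in T cells. Trbc2, a constant part of the T cell receptor beta chain, had 11 UMIs without and 478 with CD3, a log2 ratio of -2.36 (-3.44 to -1.57). Cd8b1, a chain of CD8, had 0 UMIs without and 68 with CD3. Cd5 and Cd6, surface proteins of T cells, had 1 and 1 UMI against 86 and 102, and Bcl11b, a T lineage factor, had 3 against 108. Still, 16 of the 25 barcodes without CD3 had a UMI of Trac, Trbc1 or Trbc2, against 123 of 127 with CD3. NK cells can transcribe unrearranged receptor genes, and a UMI of CD3 or another T cell gene can also be missed at this depth. Median depths were 2690, 3634.5, 1655 and 2337.5 UMIs without CD3 against 5533, 3973.5, 2063 and 2739 with CD3. After thinning to 1000 UMIs a CD3 UMI was found in 25 of 58, 26 of 58 and 21 of 30 members of the first 3 libraries.

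Other genes that led the split were less tied to lymphocyte identity. Runx1, a transcription factor, Gsap, a protein named for gamma secretase activation, Dhrs3, a retinal reductase, and the kinase Lyn were higher without CD3, with log2 ratios of 2.73, 3.58, 3.55 and 3.47. Lower without CD3 were Trnt1, a tRNA-processing enzyme, Glcci1, C1qbp, Atxn2l and Plcxd2, with 1, 2, 0, 0 and 3 UMIs against 60, 72, 61, 51 and 113. Runx1, Gsap, Trnt1, Glcci1 and Plcxd2 overlap a gene on the other strand. Saa3, an acute-phase protein gene, had 33 UMIs, all from 1 barcode of WT/ApoE-/-, and none on normal diet.

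A single barcode of LysM-DKO on normal diet gave some of the largest differences. It had 7316 UMIs, no CD3 UMI and 3 UMIs of Nkg7, and it held 32 UMIs of the cytokine gene Il5 and 23 of the interleukin 33 receptor gene Il1rl1. It also held 4 of Il13, 14 of Gata3, 25 of Il2ra and 34 of Calca. These are genes of group 2 innate lymphoid cells, another lymphocyte without CD3. It held all Il5 UMIs of the members, and Il1rl1 had 4 UMIs in members with CD3.

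**Figure D2:**
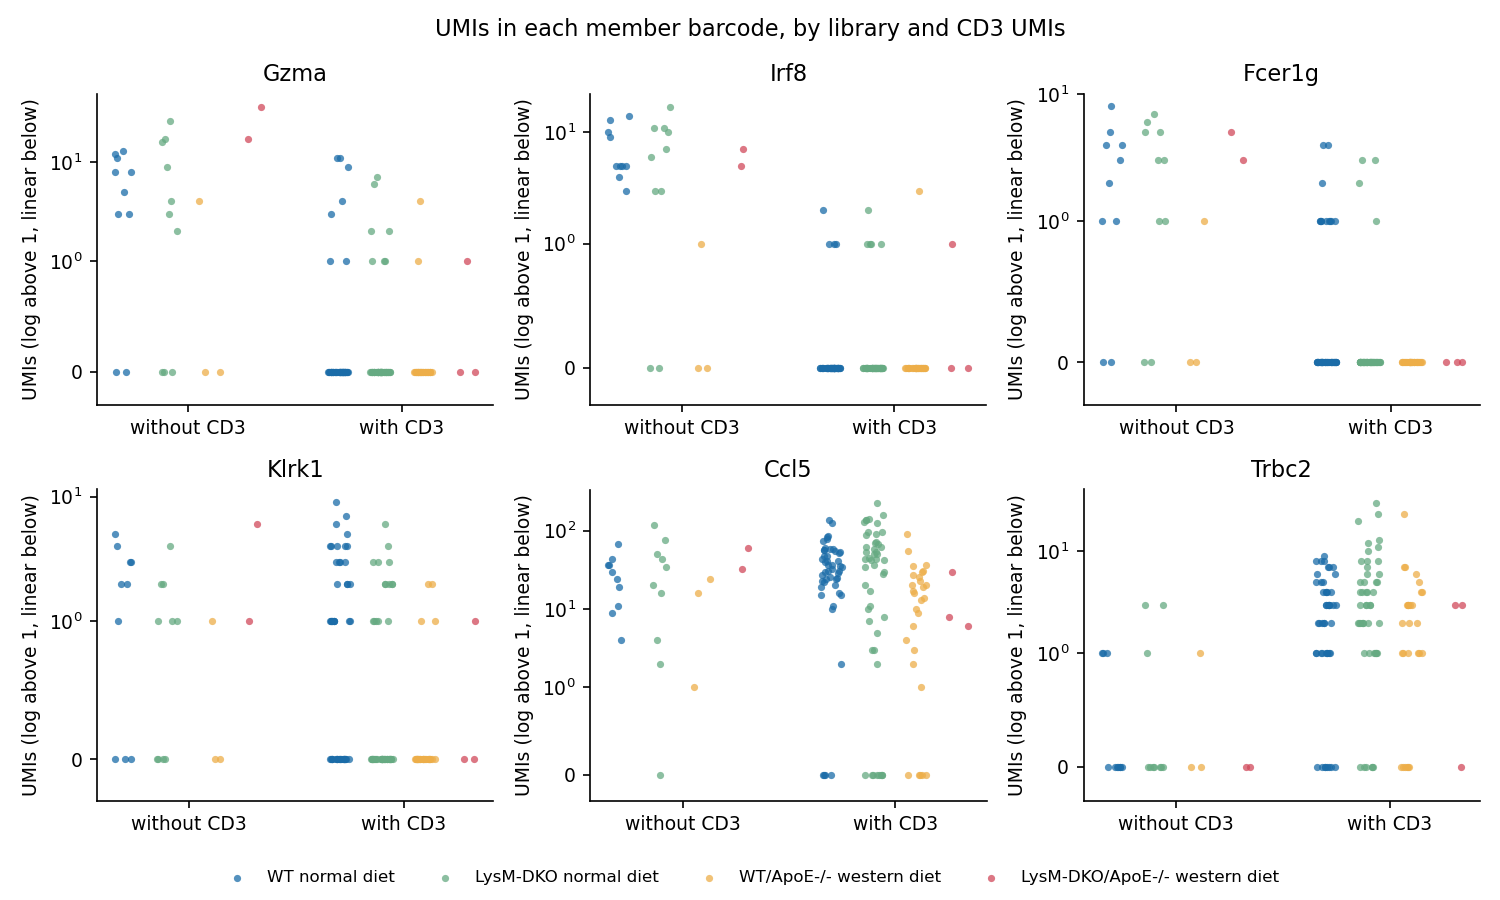
UMIs of 6 genes in each member (1 point per barcode, log axis above 1 and linear below), for barcodes without and with CD3 UMIs, coloured by library. Irf8 is seen in 21 of 25 barcodes without CD3 and 11 of 127 with CD3, while Ccl5 is found in most barcodes of both subsets and Trbc2 mainly with CD3.

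The chemokine Ccl5, which draws T cells and monocytes, was the most abundant effector gene in both subsets. It had 2145, 2817, 549 and 136 UMIs in the members, or 7054, 9913, 3963 and 6066 CPM. In barcodes without CD3 it stood at 8712, 9194, 7135 and 19679 CPM, and with CD3 at 6858, 10030, 3826 and 2479 CPM. A UMI was present in 54, 49, 26 and 5 members. For side by side values, CD3 barcodes without any UMI of the 4 rule genes and with the same exclusions were used, 785, 761, 847 and 29 in number. Ccl5 stood there at 621, 439, 322 and 61.9 CPM, so it was several fold higher in the members in each library. For this side by side set 1 CD3 UMI sufficed and Ptprc was not required, so it can include wall cells. Of all kept barcodes, 40, 109, 250 and 3 were smooth muscle barcodes with a CD3 UMI and no Ptprc. Levels in this set are therefore not those of T cells alone, and the admixture can differ between libraries. Ccl4, a related chemokine, had 73, 117, 23 and 2 UMIs in the members.

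Among members with CD3, CD8 was the co-receptor seen most. A UMI of Cd8a or Cd8b1 was present in 24 of 48 (50%, 35.2 to 64.8), 19 of 48 (39.6%, 25.8 to 54.7), 13 of 28 (46.4%, 27.5 to 66.1) and 0 of 3. Cd4 was seen in 1, 6, 2 and 0 of these barcodes and Trdc, the delta chain gene of gamma delta T cells, in 2, 3, 0 and 0. None held both CD8 and Cd4, and 58 of 127 held none of the 3. Eomes was present in 24, 26, 11 and 0 of the members with CD3.

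The comparison of LysM-DKO with WT on normal diet rested on 58 members each. Of 4205 genes with at least 20 UMIs over both libraries, 13.1% differed by more than 2 fold, 9.06% higher and 4.07% lower in LysM-DKO, with a median log2 ratio of 0.10. With median-ratio scaling 311 genes were higher and 227 lower, against 381 and 171. WT members were richer in lectin-like receptor transcripts and in genes of early or naive-like lymphocytes. Klre1, itself a lectin-like receptor, is a rule gene and led 26 WT and 8 LysM-DKO members. Levels of the other lectin-like receptors are thus not independent of how the members were chosen, and values by leading marker are given below. LysM-DKO members were richer in Gzmb, Gzmk, Ifng, inhibitory receptor and cell cycle transcripts. Epn1 had 16, 10, 4 and 1 UMIs in the members and Epn2 had 4, 2, 12 and 2, which is too few to compare, and counts from the 3' end do not measure a deletion. Lyz2, the lysozyme M gene itself, had 3, 1, 0 and 0 UMIs.

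Of 13 lectin-like receptor genes 4 were measured, and 3 were more than 2 fold lower in LysM-DKO and none higher, with a median of -1.41. Klrc2, the activating receptor NKG2C, had 110, 21, 2 and 3 UMIs, or 362, 73.9, 14.4 and 134 CPM, a log2 ratio on normal diet of -2.26 (-3.04 to -1.61). It was found in 33 of 58 WT and 10 of 58 LysM-DKO members, and in 13 and 3 after thinning. Klrk1, the activating receptor NKG2D, had 97, 45, 7 and 8 UMIs, or 319, 158, 50.5 and 357 CPM, a ratio of -1.002 (-1.55 to -0.49). Klrc1, the inhibitory receptor NKG2A, had 39, 10, 5 and 3 UMIs, a ratio of -1.81 (-3.03 to -0.84). Klrd1, the CD94 partner of both NKG2 proteins, had 20, 30, 10 and 2 UMIs and a ratio of 0.67 (-0.18 to 1.58). Klrc1 and Klrc2 are close copies, so their split is uncertain. Klra7, the single Ly49 gene with enough UMIs, had 21, 5, 0 and 0 UMIs, a ratio of -1.87 (-3.74 to -0.53).

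Several genes that mark naive, memory or immature lymphocytes were lower in LysM-DKO members. Satb1, a chromatin organizer of T cells, had 560, 130, 32 and 5 UMIs, or 1842, 457, 231 and 223 CPM, a ratio of -2.01 (-2.30 to -1.73). Emb, the adhesion protein embigin, had 576, 142, 45 and 4 UMIs, or 1894, 499.7, 325 and 178 CPM, a ratio of -1.92 (-2.20 to -1.66). WT on normal diet was the highest library for both, and the interval of each excluded 0. Lef1, a factor of naive T cells, had 65, 15, 29 and 4 UMIs, a ratio of -1.98 (-2.93 to -1.19). Il7r, the receptor for interleukin 7, had 119, 51, 21 and 7 UMIs, a ratio of -1.12 (-1.63 to -0.64). In the early maturation list 4 of 11 measured genes were more than 2 fold lower and 1 higher, with a median of -0.58. Ly6c2, a surface antigen of memory CD8 T cells, had 105, 34, 27 and 7 UMIs, a ratio of -1.51 (-2.13 to -0.96), or -0.92 with equal weight for each barcode.

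Some of these genes differed in CD3 barcodes without markers as well. Satb1 stood there at 1637 and 780 CPM in WT and LysM-DKO on normal diet, Lef1 at 360 and 181, and Emb at 1420 and 973. Eprs, a tRNA synthetase gene, had 151, 33, 51 and 5 UMIs in the members, a ratio of -2.08 (-2.69 to -1.55), and stood at 687 and 147 CPM in the CD3 barcodes without markers. Gm26917, a predicted gene, had 1180, 319, 61 and 25 UMIs, a ratio of -1.79 (-1.97 to -1.61), beside 2129 and 1071 CPM. Which RNA its UMIs come from was not examined. Plcxd2, a phospholipase-like gene, had 88, 23, 2 and 3 UMIs, a ratio of -1.82 (-2.57 to -1.16), beside 178 and 115 CPM. Whether the members differed more than the other CD3 barcodes was not tested.

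Effector genes were mixed rather than uniformly higher. Gzmb had 20, 78, 7 and 9 UMIs, or 65.8, 274, 50.5 and 401 CPM, a ratio on normal diet of 2.03 (1.34 to 2.85), and was seen in 9 and 18 of 58 members. Gzmk, granzyme K, had 4, 34, 6 and 1 UMIs, a ratio of 3.04 (1.70 to 5.14), in 3 and 16 members. Prf1 had 13, 32, 5 and 4 UMIs, a ratio of 1.37 (0.43 to 2.45). Gzma was level, with a ratio of 0.01 (-0.40 to 0.43), and Gzmm, granzyme M, was lower, with 21, 4, 0 and 0 UMIs and a ratio of -2.16 (-4.30 to -0.73). Of 11 measured granule genes 4 were more than 2 fold higher in LysM-DKO and 1 lower, with a median of 0.37.

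Of the secreted factors, Ifng was higher in LysM-DKO and Xcl1 rested on 1 barcode. Ifng, interferon gamma, had 8, 47, 13 and 0 UMIs in 5, 9, 6 and 0 members, a ratio of 2.58 (1.56 to 3.95), and 1 LysM-DKO barcode, of 4145 UMIs, held 21 of the 47. Xcl1, a chemokine for cross-presenting dendritic cells, had 28, 76, 4 and 1 UMIs, a ratio of 1.52 (0.90 to 2.22), but 61 of the 76 lay in that same barcode. Without it Xcl1 had 15 UMIs against 28, a ratio of -0.76 (-1.79 to 0.17), and Ifng 26 against 8, a ratio of 1.76 (0.63 to 3.17). Ccl5 had a ratio of 0.49 (0.41 to 0.57) and Ccl4 of 0.77 (0.34 to 1.22). Of the 6 measured genes of this list 2 were more than 2 fold higher and none lower, with a median of 0.63.

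Inhibitory and exhaustion genes were 4 of 6 more than 2 fold higher in LysM-DKO members and none lower, with a median of 2.34. Pdcd1, the receptor PD-1, had 1, 35, 7 and 2 UMIs in 1, 16, 2 and 1 members, so the UMIs of LysM-DKO on normal diet were spread over many barcodes. Tox, a factor of chronically stimulated T cells, had 7, 44, 19 and 0 UMIs, a ratio of 2.67 (1.59 to 4.15). Ctla4 had 4, 24, 8 and 0 UMIs, a ratio of 2.54 (1.14 to 4.67). In CD3 barcodes without markers Pdcd1 stood at 36.0 and 82.1 CPM and Tox at 87.1 and 134 CPM on normal diet. Of the T cell receptor and co-receptor genes 5 of 14 were more than 2 fold higher and none lower, among them the costimulatory receptors Icos with 27, 78, 11 and 2 UMIs and Cd28 with 52, 113, 42 and 7.

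Cell cycle genes were all higher in LysM-DKO members, 6 of 6 measured more than 2 fold, with a median of 2.63, but few barcodes carried them. Mki67, a protein of dividing cells, had 5, 68, 15 and 0 UMIs in 1, 8, 3 and 0 members, all with CD3. It was present in 2.08% (0.0527 to 11.1), 16.7% (7.48 to 30.2) and 10.7% (2.27 to 28.2) of the members with CD3 in the first 3 libraries. One LysM-DKO barcode of 19632 UMIs held 33 of the 68, with 18 UMIs of Top2a, 106 of Hmgb2 and 4 of the regulatory T cell gene Foxp3, and only 2 of Ccl5. Another, of 11897 UMIs, held 26 of the 68, with 3 UMIs of Nkg7 and none of Ccl5, so most of the Mki67 UMIs lay in these barcodes. Hmgb2, a chromatin protein abundant in dividing cells, had 93, 307, 118 and 5 UMIs, or 306, 1080, 852 and 223 CPM, a ratio of 1.82 (1.48 to 2.17). Without barcodes of 15000 or more UMIs this was 1.31. After thinning, Mki67 was seen in 1 of 58 WT and 2 of 58 LysM-DKO members, so the difference in barcodes was not detectable at that depth.

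Maf, a transcription factor of regulatory and effector T cells, had 24, 121, 17 and 4 UMIs, or 78.9, 426, 123 and 178 CPM, a ratio of 2.41 (1.79 to 3.13). It was found in 10 and 26 of 58 members, and stood at 155 and 369 CPM in CD3 barcodes without markers. S100a11, a calcium-binding protein, had 43, 152, 63 and 6 UMIs, a ratio of 1.91 (1.42 to 2.44), and Lmnb1, a nuclear lamin, had 17, 59, 30 and 4, a ratio of 1.86 (1.09 to 2.76). Ifi27l2a, an interferon-stimulated gene, had 2, 73, 9 and 2 UMIs in 2, 26, 6 and 1 members, a ratio of 4.98 (3.38 to 8.36). It stood at 85.5 and 181.8 CPM in CD3 barcodes without markers. Of 6 measured interferon-stimulated genes, 2 were more than 2 fold higher, with a median of 0.83. Maf, Lef1, Emb, Plcxd2, Xcl1 and Eomes overlap genes on the other strand.

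Igfbp5, which binds insulin-like growth factors and is a gene of stromal cells, had the highest ratio of the ranked genes, but rested on 1 barcode. It had 4, 331, 5 and 6 UMIs, and 310 of the 331 lay in a LysM-DKO barcode of 12298 UMIs that also held 5 CD3 UMIs and 51 UMIs of mesothelial genes, 19 of Msln and 20 of Upk3b among them. Without the top barcode of each library the log2 ratio went from 6.30 to 3.24.

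**Figure D3:**
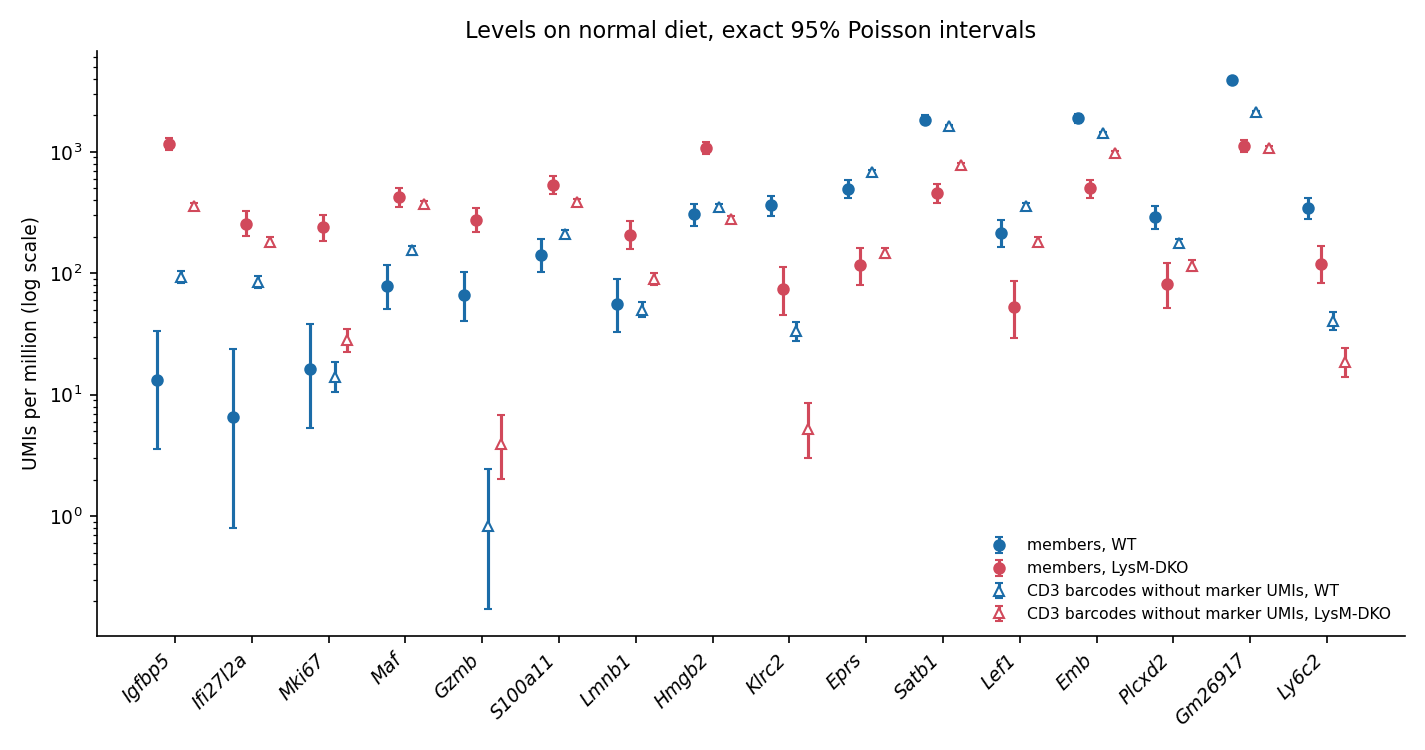
Levels (CPM, log axis) of the 16 genes ranked on normal diet, in the members and in CD3 barcodes without marker UMIs of WT and LysM-DKO (bars, exact 95% Poisson intervals). The ranking took 8 genes per direction, at 200 or more CPM in the higher library, so larger ratios at lower levels, such as that of Gzmk, are not shown. Klrc2 stands at 362 CPM in WT members and 73.9 in LysM-DKO members, and Gzmb at 65.8 and 274.

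Among members with CD3 alone 15.3% of 3735 genes differed by more than 2 fold, 10.4% higher and 4.82% lower in LysM-DKO. The leading marker differed as well. Among members with CD3 on normal diet, Klre1 led in 26 of WT and 7 of LysM-DKO, and Nkg7 in 14 and 37. Klrc2 stood at 527 CPM in the Klre1-led and 113 CPM in the Nkg7-led barcodes of WT, and at 185 and 49.8 CPM in those of LysM-DKO. Klrk1 stood at 399, 127, 667 and 69.7 CPM in the same order, so it was higher in Klre1-led barcodes of both libraries. Between the libraries its log2 ratio was 0.77 (-0.11 to 1.52) in Klre1-led and -0.90 (-2.18 to 0.52) in Nkg7-led barcodes, and both intervals included 0. Klrc2 had a log2 ratio of -1.38 (-3.17 to -0.22) in Klre1-led and -1.20 (-2.68 to 0.36) in Nkg7-led barcodes.

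Other genes differed within both kinds of barcode. Satb1 had log2 ratios between the libraries of -1.46 (-2.14 to -0.89) in Klre1-led and -1.47 (-1.97 to -0.97) in Nkg7-led barcodes, and Emb of -1.72 (-2.51 to -1.09) and -1.11 (-1.59 to -0.62). Ccl5 was higher in both, with 0.86 (0.68 to 1.04) and 0.65 (0.51 to 0.80), and so was Hmgb2, with 1.04 (0.14 to 1.82) and 2.17 (1.56 to 2.92). In LysM-DKO the Hmgb2 UMIs lay in 3 of 7 Klre1-led barcodes, and 1 Nkg7-led barcode held 106 of 275 UMIs. Maf had a ratio of 1.85 (0.98 to 3.01) in Nkg7-led barcodes, where it had 10 UMIs in WT and 107 in LysM-DKO. Gzmk had 33 of its 34 LysM-DKO UMIs in the 37 Nkg7-led barcodes and none in the 14 of WT, and Gzmb had 34 and 0. CD8 was seen in 10 of 14 Nkg7-led barcodes of WT and in 15 of 37 of LysM-DKO.

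**Figure D4:**
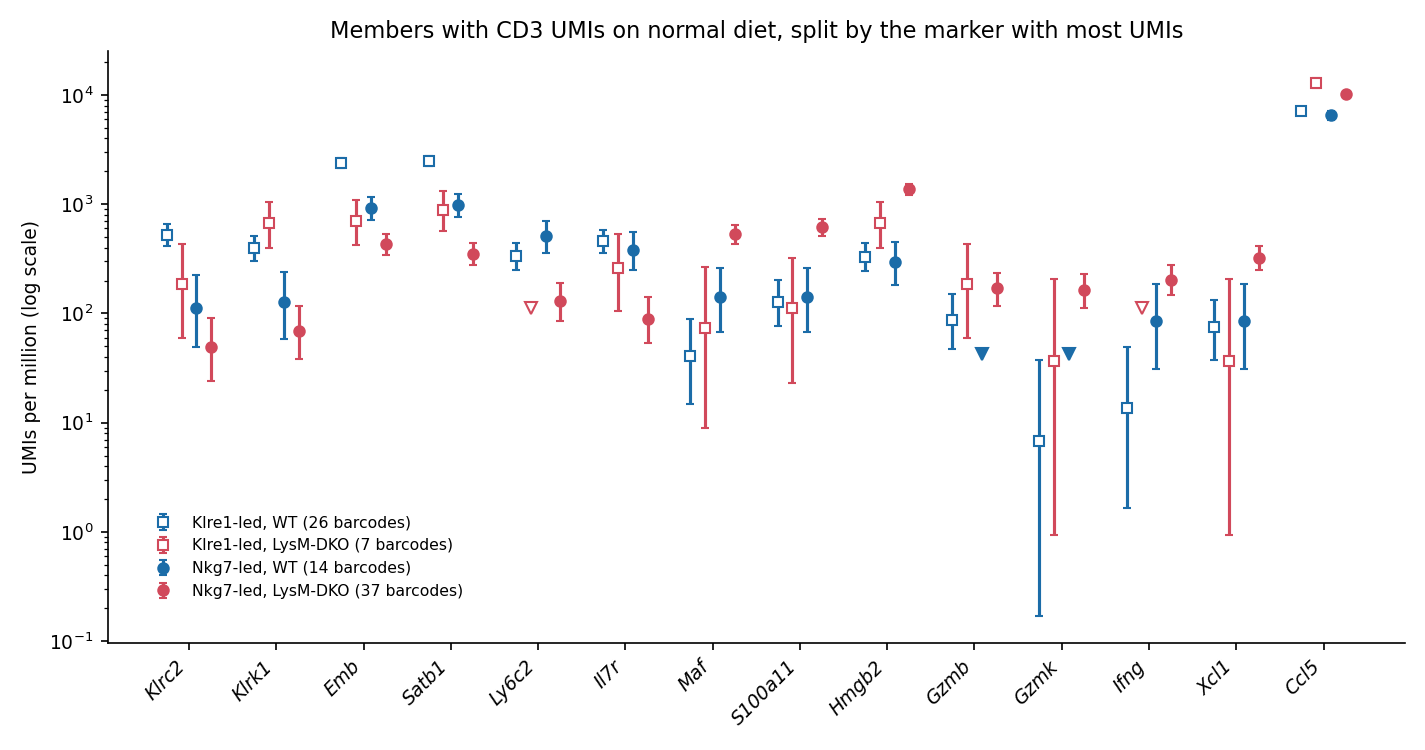
Levels (CPM, log axis) of 14 genes in members with CD3 on normal diet, by the rule gene with the most UMIs (squares, Klre1; circles, Nkg7) and library (bars, exact 95% Poisson intervals; triangles, the level of 3 counts where there were 0 UMIs). Klrk1 is higher in Klre1-led barcodes of both libraries, whereas Ccl5 is higher in LysM-DKO for both leading markers.

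Among the 10 members without CD3 in each normal diet library, 15.2% of 584 genes differed by more than 2 fold, 7.88% higher and 7.36% lower. Irf8 had a ratio of -0.41 (-0.91 to 0.09), Fcer1g of -0.16 (-0.95 to 0.63) and Gzma of -0.02 (-0.52 to 0.48), and these intervals all include 0. Il2rb was lower in LysM-DKO, with 94 and 54 UMIs and a ratio of -1.10 (-1.62 to -0.61), as was Emb with -1.44 (-2.07 to -0.85). The LysM-DKO barcodes were mixed. The barcode of 7316 UMIs with the Il5 UMIs and another of 5640 UMIs held no Irf8, Fcer1g or Gzma. They held 4 and 1 UMIs of Il2rb, and the second had 1 UMI of Trac, 3 of Trbc2 and 1 of Cd8a. Both enter the 39809 UMIs behind each LysM-DKO level here, and ratios without them were not computed. Gzmb had 4 and 22 UMIs, a ratio of 2.01 (0.59 to 4.15), and Prf1 had 5 and 19, a ratio of 1.52 (0.15 to 3.39). Without the barcode that held 11 UMIs of each, the ratios were 1.18 (-0.47 to 3.40) and 0.46 (-1.29 to 2.47), and both intervals included 0.

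RNA of wall cells was present in the members. The 6 smooth muscle markers summed to 5153, 4546, 6468 and 24352 CPM, all with UMIs in each library, against 8870, 12269, 17121 and 21554 CPM in CD3 barcodes without markers. Every member held smooth muscle UMIs, with a range of 11 to 205, 9 to 49, 1 to 362 and 5 to 522 UMIs per barcode. The 6 fibroblast markers summed to 342, 802, 5919 and 1204 CPM, with 3 of the 6 at 0 in LysM-DKO/ApoE-/-. In WT/ApoE-/- 4 members held 20 or more fibroblast UMIs and the highest held 557, in a barcode of 15507 UMIs with 726 UMIs of Spp1 and 3 each of CD3 and Nkg7. On normal diet 0 of 6 measured smooth muscle genes and 2 of 4 fibroblast genes were more than 2 fold higher in LysM-DKO. The 6 B cell markers had 74, 162, 21 and 6 UMIs, the erythroid markers 57, 109, 0 and 0, the 6 macrophage markers 19, 34, 36 and 4, and the 6 neutrophil markers none. Their part in the differences between libraries was not tested. Dissociation stress genes summed to 8738, 9082, 8864 and 8474 CPM, and none of 18 passed 2 fold in the normal diet comparison, with a median of -0.09.

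**Figure D5:**
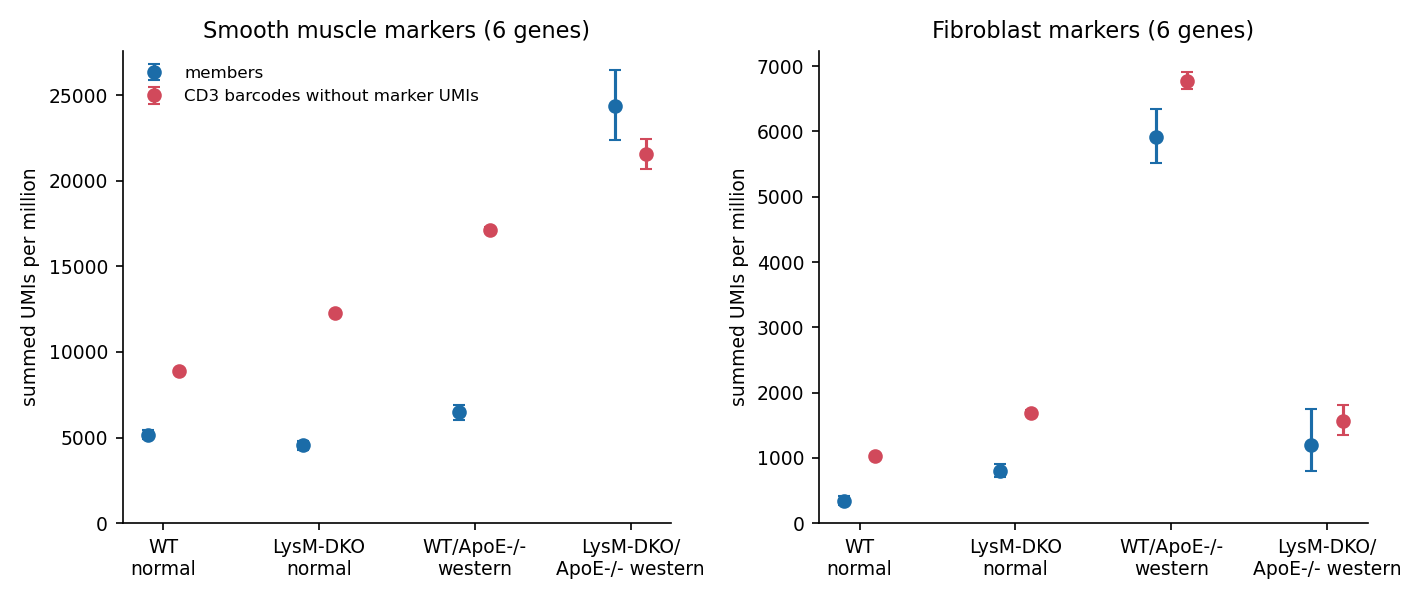
Summed levels (CPM) of 6 smooth muscle and 6 fibroblast markers in the members and in CD3 barcodes without marker UMIs, by library (bars, exact 95% Poisson intervals). Smooth muscle RNA in the members is highest in LysM-DKO/ApoE-/- at 24352 CPM, where 1 of 5 barcodes held 522 UMIs, and fibroblast RNA in WT/ApoE-/- at 5919 CPM.

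Between WT/ApoE-/- on western diet and WT on normal diet, 27.1% of 3437 genes differed by more than 2 fold, 15.3% higher and 11.8% lower on western diet. The members were 31 and 58. In WT/ApoE-/- 3 barcodes of 15507, 22902 and 28112 UMIs held 48.0% of the UMIs of the members, which enter every CPM of that library. Without them 339 genes were higher and 341 lower, against 526 and 404. In those with CD3 28.7% of genes did, 17% higher and 11.8% lower, and in those without CD3 33.6% of 271 genes did, 14% higher and 19.6% lower. With the 3 deep barcodes included, cytokine receptors and lectin-like receptors were lower in the western diet library. Fibroblast genes were higher, 5 of 5 measured, with a median of 3.34, and 1 of the 3 deep barcodes held 557 fibroblast UMIs. Of 9 measured cytokine receptor genes 8 were more than 2 fold lower and none higher, with a median of -1.55 beside 0.09 over all genes. List counts without the deep barcodes were not made.

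Il2rb had 37 UMIs (267 CPM) on western diet against 341 (1121 CPM), a log2 ratio of -2.05 (-2.60 to -1.58), and Ifngr1, a chain of the interferon gamma receptor, had 33 (238 CPM) against 340 (1118 CPM), -2.21 (-2.79 to -1.71). In CD3 barcodes without markers Il2rb stood at 316 against 299 CPM and Ifngr1 at 364 against 486. Klrk1 was lower, with 7 against 97 UMIs, -2.57 (-4.01 to -1.56), and so was Klrc2, with 2 against 110, -4.33 (-7.71 to -2.76). Of the lectin-like receptors 3 of 4 measured were more than 2 fold lower, with a median of -2.14. The homing list had 7 of 13 genes more than 2 fold lower and 2 higher. Ccr2, a receptor for monocyte chemokines, had 2 against 61, -3.49 (-6.87 to -1.88). The integrin gene Itga4 was higher, with 49 against 41 UMIs, 1.39 (0.76 to 2.03). Txk, a kinase of T and NK cells, had 7 against 216 UMIs and Ikzf2, the factor Helios, had 6 against 253. The values of Il2rb, Txk and Ikzf2 and the list counts are given only with the barcodes of 15000 or more UMIs included. Without the barcodes of 15000 or more UMIs Ifngr1 had a ratio of -1.50 (-2.14 to -0.97), Klrk1 of -1.83 (-3.42 to -0.76), Klrc2 of -3.39 (-6.77 to -1.82), Ccr2 of -2.54 (-5.93 to -0.94) and Itga4 of 2.18 (1.53 to 2.83).

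Cd8a and Ifng were higher in the western diet members of WT/ApoE-/-, and the intervals of Tcf7 and Eomes included 0. Among members with CD3, 46.4% held a UMI of Cd8a or Cd8b1, against 50% in WT on normal diet, at median depths of 2063 and 5533 UMIs. After thinning, Cd8a was seen in 9 of 30 members against 4 of 58. Cd8b1 was seen in 4 of 30 against 3 of 58. The intervals of these shares overlapped for both genes, for Cd8a only narrowly (14.7 to 49.4% against 1.91 to 16.7%). Whether more barcodes held CD8 on western diet was not tested. Cd8a had 22 UMIs (159 CPM) against 16 (52.6 CPM), a ratio of 1.58 (0.60 to 2.62), and Tcf7, a factor of naive and memory T cells, had 41 against 68 UMIs, 0.41 (-0.19 to 0.98), of which 33 on western diet lay in a barcode of 28112 UMIs. That barcode also held 22 of the 29 Lef1 UMIs and 28 UMIs of Dapl1, a gene of naive CD8 T cells. Ifng had 13 against 8 UMIs, 1.80 (0.45 to 3.31), and Eomes 21 against 67, -0.52 (-1.32 to 0.19). Without the barcodes of 15000 or more UMIs Tcf7 had 5 against 68 UMIs and was lower, -1.56 (-3.36 to -0.39), Eomes had 0.43 (-0.38 to 1.13), Cd8a 2.08 (0.98 to 3.17) and Ifng 2.75 (1.40 to 4.26).

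The members of LysM-DKO/ApoE-/- were 5 barcodes, too few to rank genes. Both without CD3 carried several NK transcripts. The barcode of 1807 UMIs held 17 UMIs of Gzma, 5 of Nkg7, 1 of Ncr1, 5 of Irf8 and 32 of Ccl5. The barcode of 2868 UMIs held 36 of Gzma, 5 of Nkg7, 3 of Ncr1, 6 of Klrk1, 2 of Klrb1c, 4 of Tyrobp, 5 of Fcer1g and 60 of Ccl5. Neither held Eomes. Of the 3 with CD3, the deepest had 12831 UMIs with 522 of smooth muscle genes and 6 of Ccl5. Against WT/ApoE-/- on the same diet, 30% of 1402 genes differed by more than 2 fold, and against LysM-DKO on normal diet 35.5% of 2649 did. For these comparisons 12.2% were higher and 17.8% lower, and 16.3% higher and 19.2% lower. In members with CD3, 31.9% differed by genotype on western diet (12.4% higher, 19.5% lower) and 39% by diet in LysM-DKO (15.5% higher, 23.5% lower). In members without CD3, where 46 genes were measured by genotype on western diet, 41.3% did (8.7% higher, 32.6% lower). By diet 31.1% of 331 genes did in LysM-DKO without CD3 (11.5% higher, 19.6% lower). These shares rest on 2, 3 or 5 barcodes of 1 library and nothing is read from them.

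Gene positions below are those of GRCm38 in GENCODE M21. Klre1 lies on chromosome 6 at 129577905 to 129585827, in the NK gene complex with Klrd1 at 129591782 to 129598775, Klrk1 at 129610323 to 129623864 and Klrc2 at 129647496 to 129660689. Klra8 lies on the same chromosome at 130115226 to 130129898. Nkg7 lies on chromosome 7 at 43437073 to 43438249, Gzma on chromosome 13 at 113093825 to 113100981, Gzmb on chromosome 14 at 56258838 to 56262260 and Irf8 on chromosome 8 at 120736358 to 120756694.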

How the data were processed

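Single-cell RNA was measured in 4 aorta libraries, 1 per group. The deposited matrices hold whole UMI counts per gene and barcode, made by the authors with Cell Ranger 6.0.1 for both normal diet libraries and 6.1.2 for both western diet libraries, per the file headers. The submitters' processing notes name Cell Ranger 6.1.2, Seurat 4.1.0 and the mm10 build. Of 32285 features, 99.6% matched GENCODE M21.

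Counts of members were summed per library and given per 1000000 UMIs (CPM). Log2 ratios used 0.5 added UMIs per library and covered genes whose UMIs over the compared libraries reached 20. Intervals were exact binomial, given the total. Genes were named from 35 fixed lists and by rank, and comparisons with under 50 members in a library were not ranked. Between libraries the 8 largest ratios per direction were ranked, with intervals apart from 0. Levels in the higher library were 200 or more CPM and at or above its other kept barcodes. The CD3 split ranked 12 genes per direction of the summed ratio by the smaller normal diet ratio, 2 fold or more and alike in sign. The added UMIs let genes with 0 UMIs in a library pass, as for Il5 and Saa3. The members and lists were chosen with earlier results of these data known. No library held 20 barcodes in each CD3 subset, so that split was summed over the 4 libraries. This, the split by leading marker and the single barcodes were chosen after seeing the data. Doublets were scored with Scrublet in scanpy 1.11.5 at 0.8% per 1000 barcodes and left in, except in an alternative. The ratio code was tested on simulated data. Other software was matplotlib 3.10.9, pandas 2.3.3, scipy 1.17.1 and numpy 2.4.6 under Python 3.11.15.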

Additional observations from a re-analysis of the deposited data

Results flagged for a closer look

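For 7 genes the members' log2 ratio between the genotypes (LysM-DKO over WT) had opposite signs on the normal and the western diet, with counting intervals that excluded 0 on each. The difference between the diets was not tested, and the western diet values rest on 5 barcodes of LysM-DKO/ApoE-/-.

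Acta2, smooth muscle actin, had ratios of -0.21 (-0.36 to -0.06) on normal and 1.90 (1.65 to 2.14) on western diet, where 1 barcode held 522 smooth muscle UMIs. Gm26917 had -1.79 (-1.97 to -1.61) and 1.36 (0.61 to 2.03). Ifngr1 had -0.36 (-0.61 to -0.12) and 1.21 (0.08 to 2.16).

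Hmgb2 had 1.82 (1.48 to 2.17) and -1.80 (-3.58 to -0.67), and 74 of its 118 UMIs in WT/ApoE-/- lay in 1 barcode. Tubb5, a tubulin, had 1.11 (0.70 to 1.55) and -3.22 (-9.12 to -1.28). Trbc2 had 0.82 (0.53 to 1.13) and -1.12 (-2.72 to -0.05). H2-K1, an MHC class I gene, had 0.19 (0.06 to 0.32) and -0.71 (-1.39 to -0.14).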

How the results depend on the processing

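With 1 library per group and 5 to 58 members, depth limits what could be seen, most of all in LysM-DKO/ApoE-/-. The members' share of kept barcodes depended on the thresholds. At 5 marker UMIs it was 0.299, 0.270 and 0.0344% in the first 3 libraries, and at 2 it was 1.11, 0.955 and 0.302%. Thinned to 1000 UMIs it was 0.0902, 0.134 and 0.0728%. With up to 20% mitochondrial UMIs it was 0.471 and 0.418% on normal diet, and with at least 1000 UMIs 0.218% in WT/ApoE-/-. Of Ptprc-positive barcodes it was 2.84, 2.36, 1.11 and 2.62%. With the rule applied again after thinning, the share of members without CD3 was 85.7, 54.5, 40 and 100%, of only 7, 11, 10 and 2 barcodes. This share was 33.3% in WT on normal diet at 5 marker UMIs. When T cell receptor UMIs were barred too it was 6.90 and 5.17% on normal diet. At a minimum of 50 UMIs the genes past 2 fold were 143 against 552 by genotype on normal diet and 94 against 420 on western diet, 354 against 930 and 283 against 940 by diet in WT and LysM-DKO, and 374 against 1158 for the CD3 split. Without barcodes of 15000 or more UMIs, 160 genes against 420 were past 2 fold by genotype on western diet. Among named genes 12 values moved, 81 did not and 3 changed sign: Xcl1 at -0.76 without 1 LysM-DKO barcode, and Tcf7 at -1.56 and Eomes at 0.43 by diet in WT without barcodes of 15000 or more UMIs. Both of these settings were chosen after seeing the data. Weighting each barcode equally gave 2.01 for Mki67 and 1.25 for Hmgb2. No paired analysis was possible because each group has 1 library.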

Other observations

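Of 9 measured MHC class I genes none passed 2 fold between the normal diet members, with a median log2 ratio of 0.29. B2m, the shared light chain of these molecules, had 421 UMIs in WT and 441 in LysM-DKO, a ratio of 0.16. Srgn, the granule proteoglycan serglycin, had 181 and 189 UMIs and also a ratio of 0.16. Of 9 measured glucocorticoid-responsive genes 2 were more than 2 fold higher in LysM-DKO and none lower, with a median of 0.51.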
